A study of Mus musculus with 16 samples.

Results

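The genes described here encode 10 liver receptors that sense foreign compounds, bile acids, oxysterols and fatty acids: Nr1i2, Nr1i3, Nr1h3, Nr1h4, Ppara, Pparg, Ppard, Rxra, Nr5a2 and Ahr. DNase hypersensitive sites (DHS), stretches of open chromatin where DNase I cuts readily, were collected from 20 kb upstream to 20 kb downstream of each gene, and peaks of different lists, 4 in all, were merged into 1 region where they shared 1 bp or more. These windows held 105 of the 51482 regions found in the genome. The livers came from male and female mice of 2 inbred strains at 8 weeks of age, C57BL/6J (B6) and the wild-derived CAST/EiJ (CAST), and the purified nuclei received 32 units of DNase I. The labels name no drug treatment, and the groups are labelled by sex and strain. The 16 libraries formed 4 groups of 4, each sex in each strain, and the peak list of a group is described as merged from its 4 libraries. Names inside each list carry the code of the group's first library alone. Each group was thus a single list, no spread between animals could be computed, and no test between groups was possible. The comparisons below set single lists side by side, beside the share that all regions of the genome gave for the calls within each comparison.

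Most of these receptors are ligand-activated transcription factors of the nuclear receptor family. RXRα, the product of Rxra, pairs with PXR (Nr1i2), CAR (Nr1i3), LXRα (Nr1h3), FXR (Nr1h4) and the 3 PPARs on paired hexamer sites, whereas LRH-1 (Nr5a2) binds DNA as a monomer, and AhR, a helix-loop-helix protein outside the nuclear receptor family, pairs with ARNT. In the liver they switch on drug-metabolizing cytochromes P450, fatty acid oxidation, lipogenesis and the control of bile acid synthesis.

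The most accessible DHS away from any start site, found in all 4 lists, lay at Nr5a2, Nr1i3, Nr1i2 and Ppara. The 200 bases of the mm9 reference centred on each summit, plus strand, are shown because these 4 sites head the list. The mm9 letters are those of B6, and CAST letters were not read. Capitals mark matches to any of 12 receptor and liver factor motifs, which are named with their frequencies further on.
Nr5a2, chr1:138863504-138863703: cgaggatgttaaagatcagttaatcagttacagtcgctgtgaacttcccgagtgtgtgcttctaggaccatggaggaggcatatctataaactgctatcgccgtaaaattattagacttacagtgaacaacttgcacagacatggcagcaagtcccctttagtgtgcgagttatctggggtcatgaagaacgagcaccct
Ppara, chr15:85550925-85551124: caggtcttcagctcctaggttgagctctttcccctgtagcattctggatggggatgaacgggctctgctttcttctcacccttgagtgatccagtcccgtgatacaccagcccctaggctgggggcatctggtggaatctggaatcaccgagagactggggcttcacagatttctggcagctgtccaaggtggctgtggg
Nr1i3, chr1:173134516-173134715: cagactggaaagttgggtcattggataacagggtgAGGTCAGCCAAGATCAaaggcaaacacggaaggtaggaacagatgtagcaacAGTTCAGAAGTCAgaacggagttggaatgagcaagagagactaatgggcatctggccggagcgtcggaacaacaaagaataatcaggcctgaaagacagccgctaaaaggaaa
Nr1i2, chr16:38287711-38287910: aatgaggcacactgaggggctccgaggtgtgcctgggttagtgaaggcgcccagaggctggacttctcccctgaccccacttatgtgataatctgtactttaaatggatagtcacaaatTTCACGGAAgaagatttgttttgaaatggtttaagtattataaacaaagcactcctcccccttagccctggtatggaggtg
The Nr1i3 window held the hexamer AGGTCA within paired hexamers, and the Nr1i2 window held a single STAT-type match. The Nr5a2 and Ppara windows held no match.

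Fold enrichment, the scale used below unless another is named, is the number of overlapping fragments at the summit (the pileup) over the local background of that list. Fold enrichment at the Nr5a2 site, chr1:138862758-138864108, was 12.5 in B6 males, 11.02 in B6 females, 13.4 in CAST males and 11.7 in CAST females, the highest of the 105 regions in every list. Its summit lay 6600 bp upstream of the Nr5a2 start, between genes. In nuclei of whole liver, fewer cells with the site open and less cutting per cell cannot be told apart, here and at every later value. LRH-1, the product of Nr5a2, acts on bile acid synthesis genes, and its promoter, chr1:138855941-138857661, ranked below this upstream site in all 4 lists, at 9.41 in B6 males, 7.0 in B6 females, 8.67 in CAST males and 6.69 in CAST females.

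By fold enrichment the strongest distal site also stood above the start site at Nr1i3, Nr1i2, Nr1h4 and Rxra in all 4 lists. It did so at Ppara in 3 of them and at Ppard in the CAST lists. At Nr1i3, which encodes the xenobiotic receptor CAR, the site 9485 bp upstream (chr1:173133717-173134957) had a fold enrichment of 9.63 in B6 males, 6.67 in B6 females, 11.2 in CAST males and 8.98 in CAST females. Peaks within 250 bp of the Nr1i3 start reached 3.05, 2.61, 3.50 and 2.57 in that order. At Nr1i2, which encodes the pregnane X receptor, an intronic site 7099 bp downstream of the start (chr16:38287478-38288356) stood at 9.48 in B6 males, 7.01 in B6 females, 9.79 in CAST males and 8.42 in CAST females, and the peak at the start at 3.69, 2.54, 3.99 and 4.55. At Ppara, the receptor for fatty acids and fibrates, the site 14388 bp upstream (chr15:85550649-85551383) had 9.14 in B6 males, 6.51 in B6 females, 12.2 in CAST males and 8.72 in CAST females. The start-site peak of Ppara was higher than the upstream site in B6 females, at 6.87. It was lower in the other lists, at 6.92, 7.37 and 6.68 in B6 males, CAST males and CAST females. By summit pileup this order turned at Ppara, with more fragments at the start than at the upstream site in all 4 lists (728, 385, 731 and 245 against 404, 181, 478 and 154, in the order B6 males, B6 females, CAST males and CAST females).

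**Figure D1:**
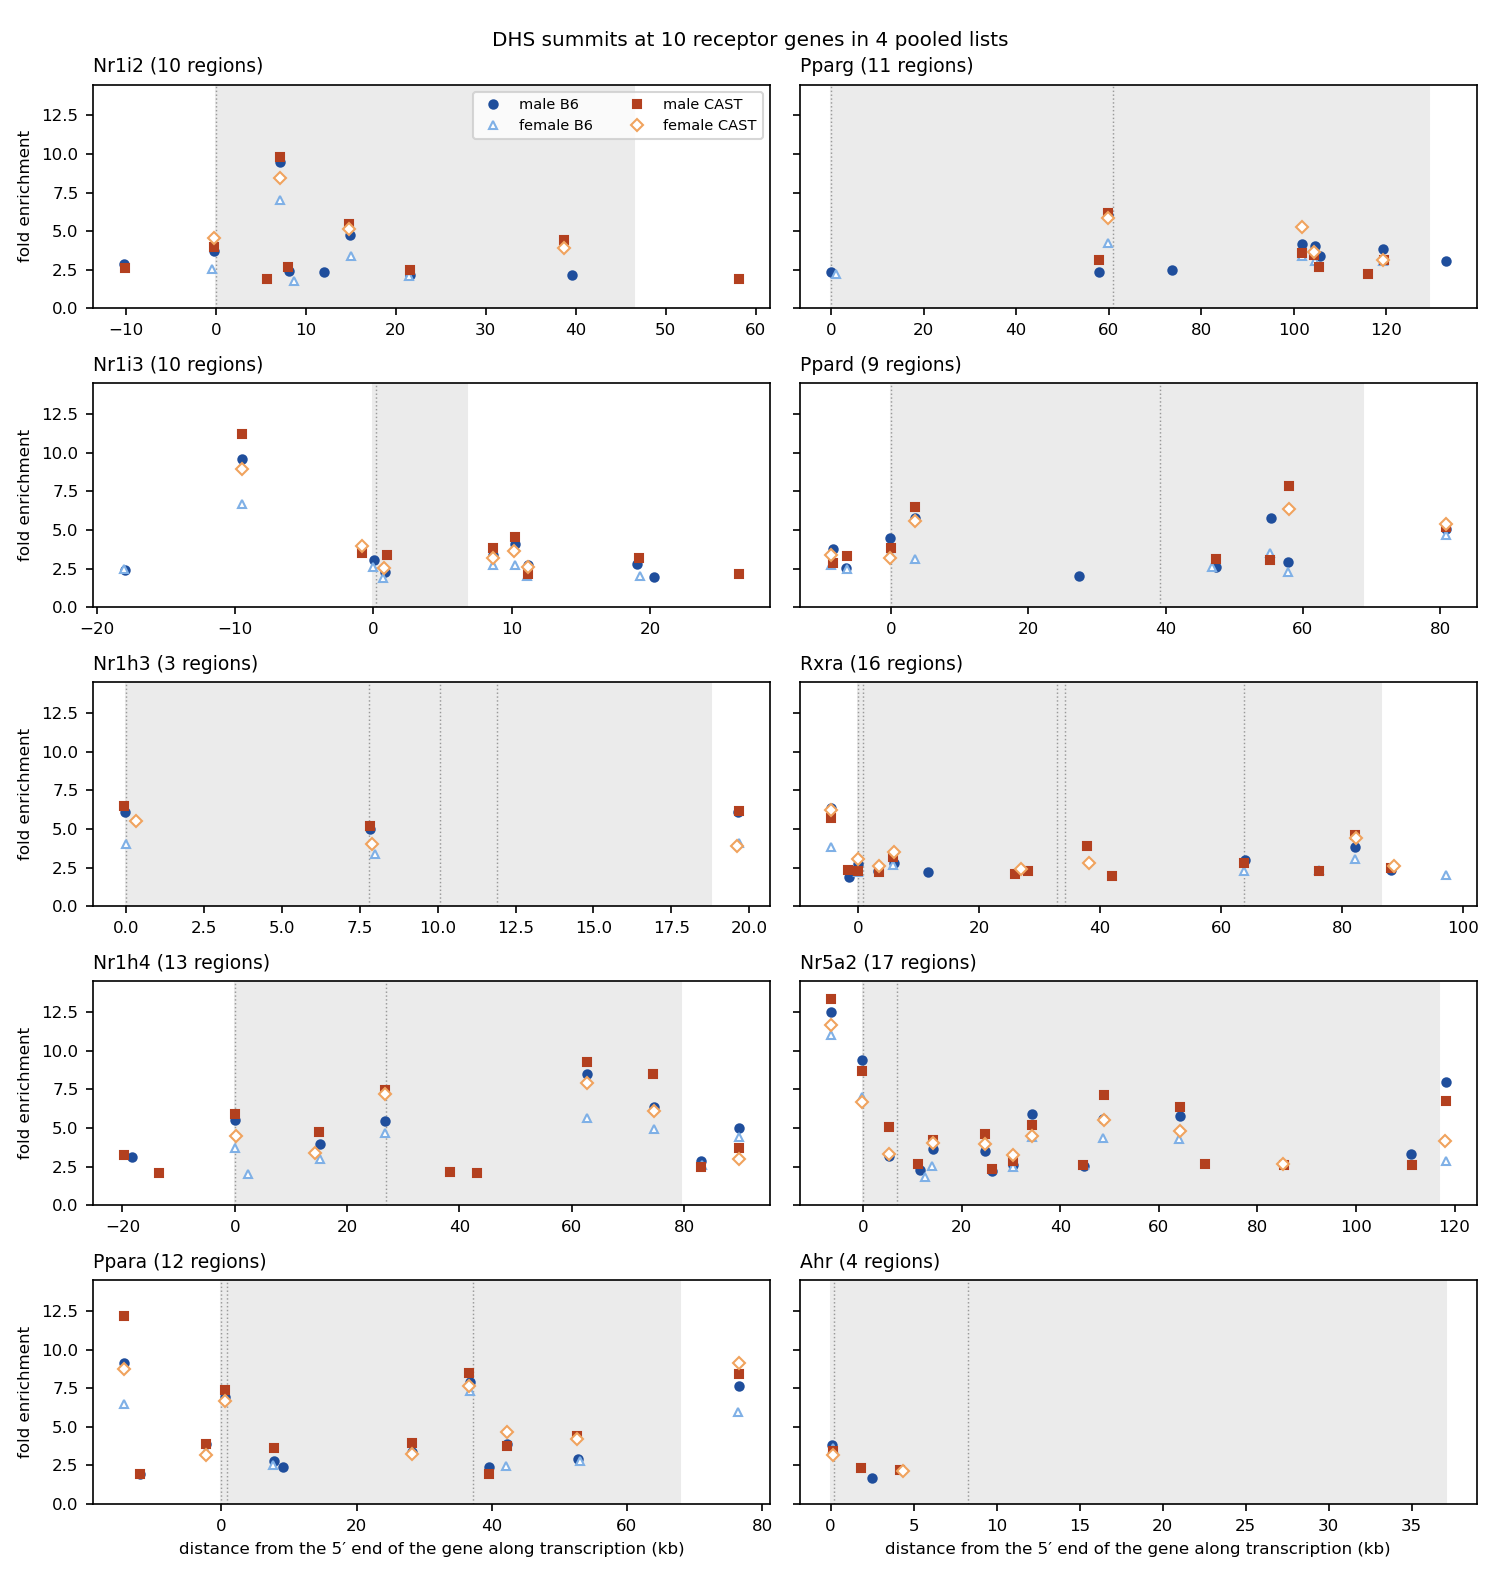
Fold enrichment of each DHS (vertical axis) against the distance of its summit from the 5′ end of the gene along transcription in kb (horizontal axis), 1 panel per gene and 1 symbol per list (filled for males, open for females). Grey shading is the gene body and dotted lines are annotated start groups; the Nr5a2 upstream site, at 11.02 to 13.4 in the 4 lists, is the highest point of the 10 panels.

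Every member had at least 1 region found in all 4 lists, and the number of regions per window ran from 3 at Nr1h3 to 17 at Nr5a2. Rxra held 16, Nr1h4 13, Ppara 12, Pparg 11, Nr1i2 and Nr1i3 10 each, Ppard 9 and Ahr 4. The members had a median of 10.9 regions per 100 kb of window, against 3.25 for the windows of all 22350 protein-coding genes outside the Y and mitochondrial chromosomes. Nr1i3, a short gene in a crowded stretch, was the densest at 21.4 regions per 100 kb, but 7 of its 10 regions lay within 2.5 kb of the start of another gene, such as Apoa2, Tomm40l, Pcp4l1 and Fcer1g. Ahr, with 5.19 per 100 kb, and Nr1h3, with 5.10, were the sparsest. Of the 105 regions, 68 (64.8%) lay more than 2.5 kb from every annotated start, against 67.1% of all regions, 25 lay at a member's own promoter and 12 at the promoter of a neighbour. By place of the summit, 72 were intronic, 23 intergenic, 6 in UTR exons, 3 in coding exons and 1 in a non-coding exon.

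The number of regions depends on the window, with 93 at 10 kb and 139 at 50 kb. The regions nearest to the 20 kb limit on the inside were peaks of CAST males alone, 19581 bp from Nr1h4 with a fold enrichment of 3.28 and 19538 bp from Nr1i3 with 2.15, and the nearest on the outside lay 22669 bp from Nr1h3, with 3.12 in B6 males, 6.43 in CAST males, 4.48 in CAST females and no peak in B6 females.

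**Figure D2:**
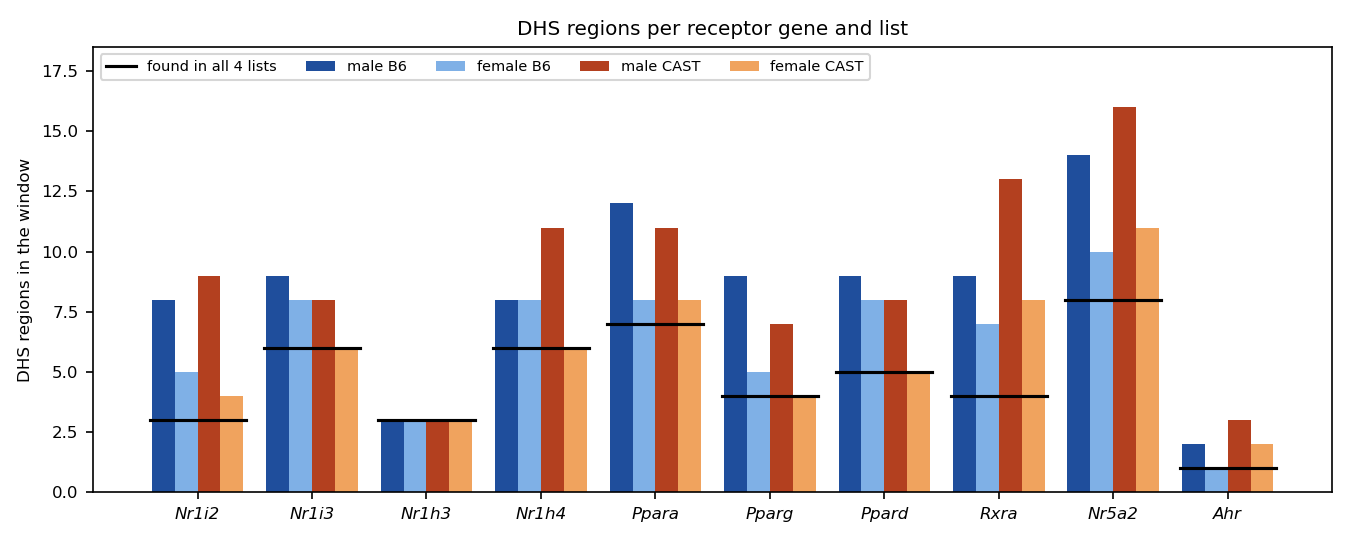
Number of DHS regions in each gene's window (vertical axis) by gene and list (bars), with a black line at the number found in all 4 lists. The male bars are at least as high as the female bars of the same strain at all 10 genes, with equal heights at Nr1h3 in both strains and at Nr1h4 in B6.

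Of the 105 regions, 47 (44.8%) had a peak in every list and 28 (26.7%) in 1 list, against 35.6% and 35.2% of all regions. None of the single-list regions had a fold enrichment above the median of its own list, against 5.36% of all single-list regions. Their median was 2.35 in B6 males (10 regions), 2.01 in B6 females (4) and 2.15 in CAST males (13), with 2.39 at the lone CAST female region, where all single-list regions had 2.38, 2.28, 2.49 and 2.68 in the same order. At regions found in all 4 lists the members' median was 4.98 in B6 males, 3.45 in B6 females, 5.21 in CAST males and 4.47 in CAST females, against 5.35, 3.88, 5.80 and 4.66 for all such regions. Of the regions within 2.5 kb of a start 59.5% were found in all 4 lists, against 59.1% for all such regions, and of the distal regions 36.8%, against 24%.

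The spread of summit positions between lists was also compared. At the 47 regions found in all 4 lists the summits spread over a median of 76 bp, and in 28 of them (59.6%) over at most 100 bp, against 91 bp and 54.5% for the genome. The widest spread, 880 bp, was at chr10:88980937-88982504 within Nr1h4, a region of 1568 bp.

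The start sites themselves differed between genes with more than 1 annotated promoter. Nr1h4, which encodes the bile acid receptor FXR, was open at both of its start groups in all 4 lists. The upstream start had a fold enrichment of 5.55 in B6 males, 3.67 in B6 females, 5.91 in CAST males and 4.46 in CAST females, and the internal start 5.44, 4.65, 7.44 and 7.20 in the same order. Its strongest distal site, intronic at chr10:88933342-88934121, had 8.49, 5.66, 9.29 and 7.90. Ppara was open at all 3 of its start groups, with 7.91, 7.29, 8.46 and 7.65 at the internal start of a non-coding transcript.

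Pparg, the adipogenic member of the PPAR group, showed the opposite arrangement. Its upstream start, that of the transcript coding for 475 residues, overlapped a single weak peak, 2.32 in B6 males, and a separate peak of 2.21 lay 966 bp into the gene in B6 females alone. Its downstream start, that of the transcript coding for 505 residues (the isoform known as PPARγ2), had a DHS with its summit 1023 bp upstream in all 4 lists. Fold enrichment there (chr6:115370874-115372169) was 6.06 in B6 males, 4.25 in B6 females, 6.15 in CAST males and 5.84 in CAST females. The mm9 summit windows of the 2 single-list peaks at the upstream start were rich in G and C (77.5% and 68.0%), and that of the downstream DHS was not (39.0%).

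At Ppard the first start was open in all 4 lists, at 4.505 in B6 males, 3.49 in B6 females, 3.81 in CAST males and 3.22 in CAST females, and the second held no peak in any list. Nr1h3, which encodes the oxysterol receptor LXRα, had just 3 regions, each in all 4 lists: at its coding start, at the upstream start of a non-coding transcript, and at the promoter of the neighbouring Madd. The upstream start lies beside those of Acp2, on the other strand, and of the non-coding Gm13783, so the DHS there, at 6.10, 4.05, 6.51 and 5.55, cannot be assigned to 1 gene. Ahr had 1 region in all 4 lists, at its first start, with 3.798 in B6 males, 3.61 in B6 females, 3.45 in CAST males and 3.17 in CAST females. That region also covered an annotated start of Gm17436, so it cannot be assigned to 1 gene. Rxra, the shared partner, had a start-site DHS of 2.73, 2.21, 2.27 and 3.05, with summit pileups of 155, 69, 129 and 71 fragments against medians of 79, 61, 78 and 47 over all regions, and its strongest region lay 4543 bp upstream (chr2:27527149-27527641), at 6.36 in B6 males, 3.84 in B6 females, 5.72 in CAST males and 6.24 in CAST females.

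**Figure D3:**
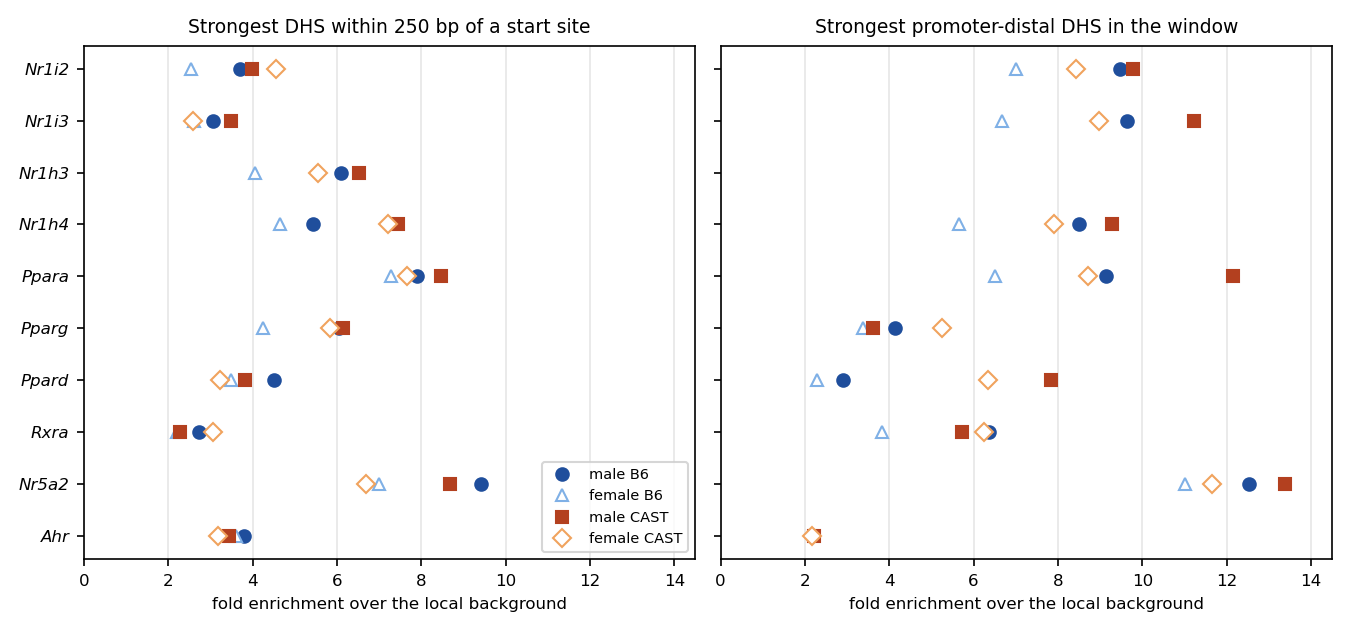
Fold enrichment (horizontal axes, from 0) of the strongest DHS within 250 bp of an annotated start (left) and of the strongest DHS more than 2.5 kb from every start (right) for each gene (vertical axis), 1 symbol per list. Nr1h3 has no distal DHS in its window, and the distal site of Ahr, at 2.22 and 2.16, appears in the CAST lists alone.

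Fold enrichment and summit pileup ranked these loci differently, since the local background that divides the pileup was higher there than at most regions. The local background, recovered from the deposited fold enrichment and p-value of each peak, was a median of 2.05 times the genome-wide background at the members' regions in B6 males, 1.55 times in B6 females, 1.95 times in CAST males and 1.78 times in CAST females. Over all regions the medians were 1.32, 1.22, 1.29 and 1.28. By fold enrichment 48.2%, 44.4%, 44.9% and 49.1% of the members' regions exceeded their list's median peak, and by summit pileup 69.9%, 58.7%, 67.4% and 73.7% exceeded the median region. Ppara was the extreme: at its first start (chr15:85565313-85566456) the local background was 6.80, 3.96, 6.90 and 4.51 times the genome-wide value, in the order B6 males, B6 females, CAST males and CAST females. The summit pileup given above for this start was the highest of all member regions except in CAST females, where the Nr1i2 intronic site had 265. On pileup Ppara therefore exceeded the Nr5a2 upstream site (539, 292, 577 and 221 fragments), and on fold enrichment it did not.

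**Figure D4:**
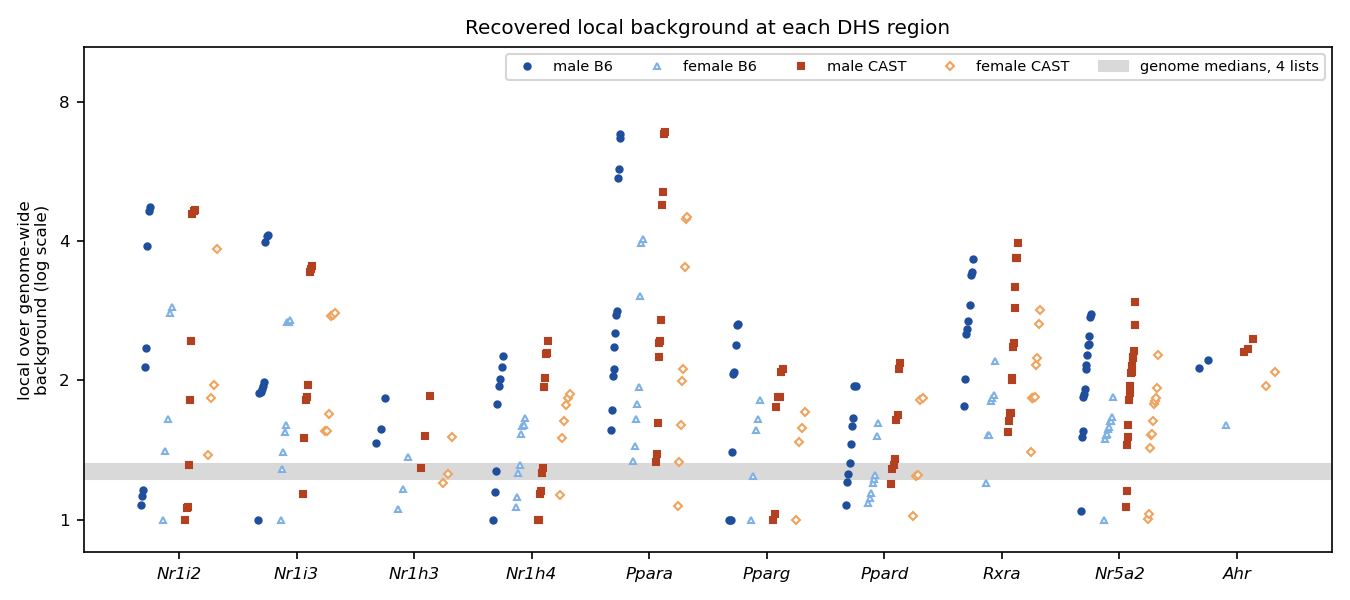
Local background at each region's strongest peak, as a multiple of the genome-wide background of its list (vertical axis, log scale), by gene and list (symbols as in the other plots). The grey band spans the 4 genome medians, 1.22 to 1.32; the Ppara start region reaches 6.80 in B6 males and 6.90 in CAST males.

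The sexes were compared within each strain to see which receptor sites were sex-dependent. In B6, 58 of the 88 regions found in either sex (65.9%) were shared, against 58.4% in the genome. A further 25 (28.4%) were found in males alone, against 36.4%, and 5 (5.68%) in females alone, against 5.13%. In CAST, 56 of 90 (62.2%) were shared, 33 (36.7%) were male-only and 1 (1.11%) was female-only, against 55.8%, 40.3% and 3.90% in the genome. The excess of male-only over female-only regions was thus present at these genes as in the genome as a whole. The female lists were smaller, at 26271 and 24888 peaks against 38751 and 39562, and the CAST female list was the shallowest, with a genome-wide background of 7.94 fragments against 13.9 in B6 females, 14.3 in CAST males and 15.4 in B6 males. At the genome-wide background the lowest fold enrichment that gave a peak was 2.24 in CAST females and 1.90 to 1.94 in the other lists.

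Scaled by the genome's median ratio of male to female fold enrichment, 8 of the 25 male-only regions of B6 and 10 of the 33 of CAST would have stood above that fold of the female list, or 32.0% and 30.3%, against 48.5% and 50.6% of all male-only regions. The limit holds at the genome-wide background. Where the local background is higher a lower fold can give a peak, as at a B6 female peak of 1.88 in the Nr1i3 window. Male-only regions of the members had a median of 2.38 in B6 and 2.46 in CAST, against 2.53 and 2.68 for all male-only regions, and reached 3.49 and 3.62.

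In both strains 9 regions were found in the male lists alone, at 5 genes, and none in the female lists alone, where the genome had 32 of 51482. They are Nr5a2 (3 regions), Pparg (2), Ppara (2), Nr1i2 and Rxra (1 each), 8.57% of the members' regions against 9.38% of all regions. The highest value in B6 males was at an intronic region of Pparg, chr6:115416527-115417037, 44791 bp downstream of its second start, with a fold enrichment of 3.40 in B6 males and 2.68 in CAST males. An intronic region of Nr5a2, chr1:138745472-138745971, had 3.29 and 2.59. The other 2 of Nr5a2, chr1:138845351-138846352 and chr1:138830736-138831214, had 2.26 and 2.19 in B6 males and 2.68 and 2.35 in CAST males. Pparg had a further region, chr6:115368977-115369304, at 2.38 in B6 males and 3.12 in CAST males, the highest of the 9 in that list. The regions in the windows of Nr1i2 (chr16:38304438-38305304, 2.85 and 2.59, within 2.5 kb of the start of another gene, Gm15649), Rxra (chr2:27530189-27530887, 1.92 and 2.32) and Ppara (chr15:85604814-85605174, 2.41 and 1.95, and chr15:85553279-85553624, 1.95 and 1.96) made up the rest. All 9 stood below the median of each male list. The mm9 window at the Pparg summit is printed because the region had the highest value of the 9, and it held no match to the motifs.
Pparg, chr6:115416775-115416974: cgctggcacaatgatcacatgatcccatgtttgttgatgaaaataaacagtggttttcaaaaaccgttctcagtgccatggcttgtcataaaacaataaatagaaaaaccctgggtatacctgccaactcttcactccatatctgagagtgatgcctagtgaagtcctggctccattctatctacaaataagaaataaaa

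Where both sexes had a peak, the ratio of male to female fold enrichment was divided by its genome median, 1.32 in B6 and 1.19 in CAST, and called past 1.5 in either direction. In B6, 1 of 58 shared regions was higher in males (1.72%, against 2.62% in the genome) and 0 of 58 in females (against 2.60%). In CAST, 0 of 56 were higher in males (against 3.31%) and 2 of 56 in females (3.57%, against 2.56%). No region passed in the same direction in both strains, and the share of all regions that did so was not counted. The balance depends on the centring: without it 7 regions in B6 were higher in males (12.1%, against 24.3% in the genome) and 0 in females (against 0.0423%), and 3 in CAST were higher in males (5.36%, against 12.5%) and 0 in females (against 0.395%). From summit pileups over the genome-wide background, centred, 2 in B6 were higher in males (against 3.41%) and 2 in females (against 8.28%), and 1 in CAST was higher in males (against 4.23%) and 2 in females (against 6.95%).

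The lone male call was 3′ of Nr5a2, at chr1:138738575-138739459. Its fold enrichment was 7.95 in B6 males against 2.88 in B6 females, a centred ratio of 2.09 (counting interval 1.49 to 2.995), and 6.78 in CAST males against 4.14 in CAST females, a centred ratio of 1.37 (0.952 to 2.03). The intervals, at 95%, cover the counting error of the 2 summit pileups and not the difference between animals. The direction was the same in both strains, and the CAST interval includes 1. The pileup was 191 and 42 fragments in B6 males and females and 146 and 37 in CAST, and taken over the genome-wide in place of the local background the centred ratios were 2.47 and 1.58, both past 1.5.

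The 2 female calls in CAST were at Pparg and Rxra. At Pparg the region chr6:115412910-115413479, with its summit in a coding exon, had 5.25 in CAST females against 3.61 in CAST males, a centred ratio of 0.579 (0.420 to 0.801), and 3.38 in B6 females against 4.14 in B6 males, a centred ratio of 0.930. At the Rxra start, 3.05 in CAST females stood against 2.27 in CAST males, a centred ratio of 0.624 (0.463 to 0.845), and the B6 ratio was 0.937. Neither was past 1.5 before the ratios were centred, and with pileups over the genome-wide background the Rxra ratio was 0.727.

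The strains were compared within each sex to see which sites depended on genetic background. In males, 72 of 100 regions (72.0%) were shared by B6 and CAST, 11 (11%) were found in B6 alone and 17 (17%) in CAST alone, against 60.0%, 19.1% and 20.9% in the genome. In females, 47 of 73 (64.4%) were shared, 16 (21.9%) were B6-only and 10 (13.7%) CAST-only, against 59.1%, 22.6% and 18.3%.

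Regions limited to a strain in both sexes were few. In the CAST lists alone there were 3 (2.86%, against 3.62% of all regions), all intronic. The strongest was in Rxra, chr2:27569615-27570562, with a fold enrichment of 3.88 in CAST males and 2.83 in CAST females. The second was in Nr5a2, chr1:138771023-138772016, with 2.58 and 2.68, and the third in Ahr, chr12:36215169-36215679, with 2.22 and 2.16. In the B6 lists alone there was 1 (0.952%, against 3.32%), at chr1:173125827-173126482, with 2.38 in B6 males and 2.48 in B6 females. It lies at the promoter of Pcp4l1, 18015 bp upstream of Nr1i3. The mm9 windows at the strongest region of each kind follow, the Pcp4l1 one without its UTR bases. Neither held a motif match.
Rxra, chr2:27569733-27569932: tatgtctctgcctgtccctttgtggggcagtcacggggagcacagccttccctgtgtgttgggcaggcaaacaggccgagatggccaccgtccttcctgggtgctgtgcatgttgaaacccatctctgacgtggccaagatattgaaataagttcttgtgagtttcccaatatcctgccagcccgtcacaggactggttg
Pcp4l1 promoter, chr1:173125986-173126150: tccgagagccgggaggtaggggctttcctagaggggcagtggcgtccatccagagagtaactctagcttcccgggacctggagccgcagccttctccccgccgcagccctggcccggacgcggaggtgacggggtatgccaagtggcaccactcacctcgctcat

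Called strain ratios, centred on genome medians of 0.947 in males and 0.842 in females (B6 over CAST), were found at 7 member regions. In males 1 of 72 shared regions was higher in B6 (1.39%, against 4.49% in the genome) and 3 in CAST (4.17%, against 6.68%). In females 1 of 47 was higher in B6 (2.13%, against 3.42%) and 3 in CAST (6.38%, against 4.97%). From summit pileups over the genome-wide background the counts in males turned to 6 higher in B6 (against 7.92%) and 4 in CAST (against 11.6%), and in females they were 1 and 6 (against 6.61% and 8.67%). Without centring 1 was higher in B6 and 5 in CAST in males (against 3.17% and 8.81%), and 0 and 12 in females (0% and 25.5%, against 0.823% and 15%). A single region passed in the same direction in both sexes by centred fold enrichment. The share of all regions that did so was not counted.

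That region is intronic in Ppard, the ubiquitous PPAR, at chr17:28427196-28427825, 18496 bp downstream of the second start. Its fold enrichment was 7.83 in CAST males and 6.34 in CAST females against 2.91 in B6 males and 2.28 in B6 females. The centred ratio of B6 to CAST was 0.392 in males (counting interval 0.296 to 0.513) and 0.427 in females (0.282 to 0.638). The sexes did not separate there, with centred ratios of 0.966 in B6 and 1.04 in CAST. Its mm9 window is shown because it carries the largest strain difference among the members' shared regions.
Ppard, chr17:28427534-28427733: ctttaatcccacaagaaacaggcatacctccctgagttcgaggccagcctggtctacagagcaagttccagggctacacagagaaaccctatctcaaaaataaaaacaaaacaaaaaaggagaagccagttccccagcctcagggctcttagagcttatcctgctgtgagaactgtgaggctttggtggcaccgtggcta
Part of this window is repeated in the genome. Of its 171 words of 30 bases, 46 (26.9%) occurred more than once in mm9, 1 of them 17306 times, the largest repeated share among the 105 windows. In 94 of the 105 no word was repeated, and in the window of the 3′ Nr5a2 region 19 words (11.1%) were. Reads were mapped by the authors only where they matched a single place. Whether repeats, or CAST variants, which were written into the genome that CAST reads were mapped to, play a part in this difference was not tested.

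The next region of Ppard went the other way in males. At chr17:28424607-28425217, also intronic, fold enrichment was 5.77 in B6 males, 3.55 in B6 females and 3.08 in CAST males, with no peak in CAST females. The centred male ratio of B6 to CAST was 1.98 (1.48 to 2.65). These 2 sites of Ppard, whose summits lie 15918 and 18496 bp downstream of the same start, thus had opposite strain differences in males.

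The other called strain ratios were each in 1 sex. Toward the 3′ end of Nr1i2 an intronic region, chr16:38255284-38256548, had 4.42 in CAST males, 3.93 in CAST females and 2.13 in B6 males, with no peak in B6 females, and a centred male ratio of 0.509 (0.338 to 0.754). Its summits spread over 913 bp, with that of B6 males at 38255334 and that of CAST males at 38256184, so this ratio compares different positions within a merged region. An internal Nr5a2 region, chr1:138851643-138852036, 1645 bp upstream of its second start, had 5.09 in CAST males, 3.33 in CAST females and 3.15 in B6 males, with no peak in B6 females, and a male ratio of 0.654 (0.503 to 0.846). The Nr1i2 start had a female ratio of 0.664 (0.464 to 0.946) and an intronic Ppara region, chr15:85607282-85607781, one of 0.628 (0.443 to 0.887), both higher in CAST. The promoter of Gas2l3, in the Nr1h4 window, was higher in B6 females, at 4.43 against 3.0, a ratio of 1.75 (1.12 to 2.80).

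The Nr1i2 and Nr5a2 regions without a peak in B6 females belong to a set of 6, at Nr5a2 (2), Rxra (2), Nr1i2 and Ppara, found in every list except B6 females. They made up 5.71% of the members' regions, against 4.73% of all regions. A further 10 (9.52%, against 6.85%) were found in every list except CAST females.

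**Figure D5:**
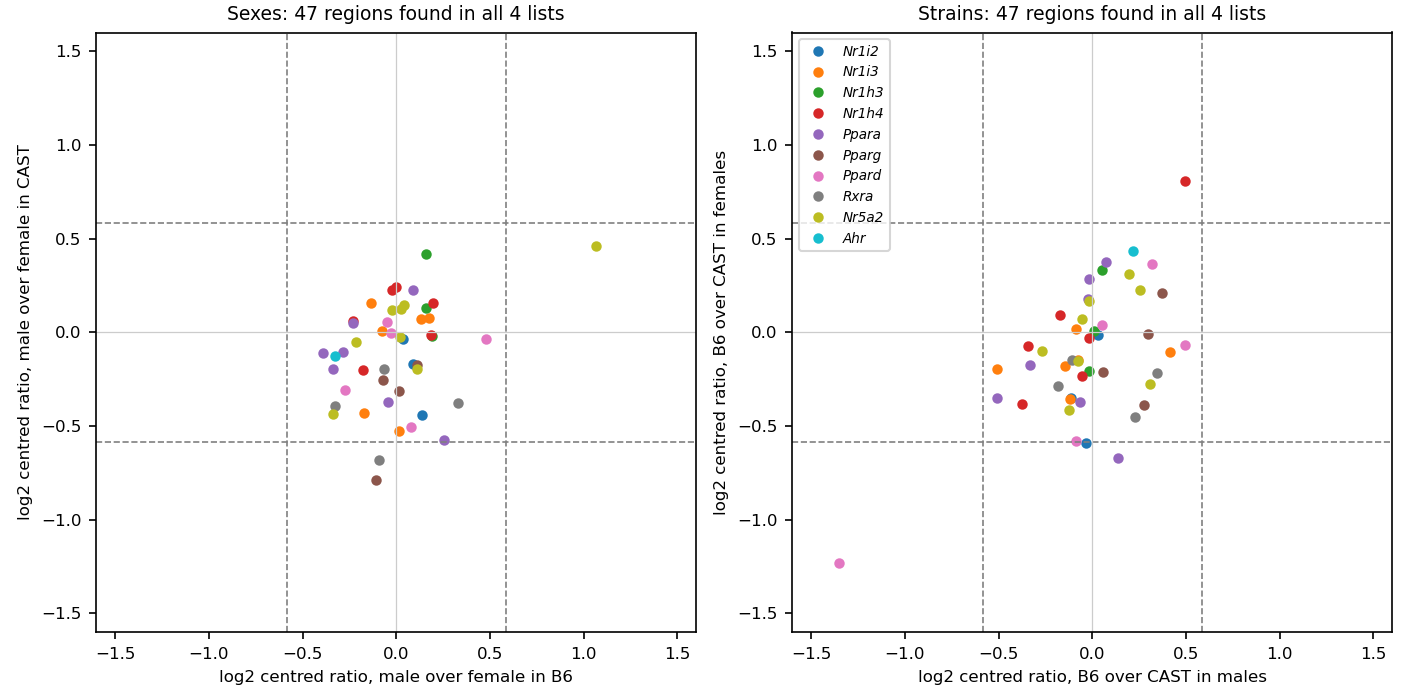
Log2 centred ratios of fold enrichment at the 47 member regions found in all 4 lists, for the sexes (left, B6 on the horizontal and CAST on the vertical axis) and for the strains (right, males on the horizontal and females on the vertical axis). Dashed lines mark a ratio of 1.5 in either direction; the 3′ Nr5a2 region lies far to the right in the left panel (1.06 in B6, 0.46 in CAST), and the Ppard intronic region lies alone at the lower left of the right panel (-1.35 in males, -1.23 in females).

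At Pparg the choice of background changed the strain calls in males. Over the 4 regions of its 3′ part found in both male lists, the centred male ratio of B6 to CAST was 1.21 to 1.34 by fold enrichment, and none was called. By summit pileup over the genome-wide background it was 1.61 to 1.88, and all 4 were past 1.5. The local background there was 1.398 to 2.65 times the genome-wide value in B6 males and 1.03 to 1.84 times in CAST males. Relative to the genome, B6 males thus had higher pileups at these summits as well as a higher local background.

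Motifs were counted at the members' summits and at all regions. A motif was searched on both strands of the 200-base summit windows, where overlapping motifs each count. The hexamer AGGTCA, bound by most of these receptors, was in 19 of 105 windows (18.1%), against 17.3% of all regions, with 16.2% against 20.2% in distal windows and 21.6% against 11.5% in promoter windows. Its extended form TCAAGGTCA, the letters bound by LRH-1, was in 0 of 105, against 0.672%. Pairs of this hexamer with up to 2 mismatches over 12 letters were in 4 windows as direct repeats spaced by 1 base (3.81%, against 5.32%), in 4 spaced by 4 bases (3.81%, against 2.88%) and in 2 as inverted repeats spaced by 1 base (1.90%, against 1.62%). Both direct repeats occurred in the CAR upstream window printed above. The AhR core TNGCGTG was in 0, against 3.0%.

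Motifs of other liver factors were counted in the same way. The FOX-type TGTTTAC was in 7 windows (6.67%, against 4.44%), all of them promoter-distal, where it was in 10.3% against 5.36%. TTGCNNAA (C/EBP type) was in 13 (12.4%, against 11.6%), TTCNNNGAA (STAT type) in 7 (6.67%, against 6.99%), GTTAATNAT (HNF1 type) in 2 (1.90%, against 1.25%), CAAAGTCCA (HNF4 type) in 0 (against 1.06%) and the GC box GGGCGG in 15 (14.3%, against 14.8%). The GC box was in 10.3% of distal windows, against 4.68%, and in 21.6% of promoter windows, against 35.5%. The 37 windows of regions within 2.5 kb of a start had a median of 3 CpG dinucleotides and 53.5% G and C, against 11 and 59.5% for all promoter regions.

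The partners and targets of the receptors were open at their promoters in most cases. A DHS within 2.5 kb of a start was found in all 4 lists at 14 of 16 partners, relatives and coregulators, against 44.4% of 22142 protein-coding genes, active in liver or not. Those at Arnt, which encodes the AhR partner ARNT, and at Nr0b2, the bile acid-induced repressor SHP, had a fold enrichment of 7.03 to 10.2 and 7.04 to 8.72. Ahrr, the AhR repressor, had none, and the coactivator Ncoa1 had none in B6 females. No centred ratio among these genes passed 1.5 in any of the 4 comparisons, against 2.30% to 4.72% of protein-coding genes.

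Among 24 textbook target genes, 19 had a promoter DHS in all 4 lists. The strongest was at Abcb11, the FXR-driven bile salt export pump, at 15.8 in B6 males, 11.4 in B6 females, 17.3 in CAST males and 15.3 in CAST females. Por, which feeds electrons to the cytochromes P450, had 10.3 to 12.9. No DHS was found at Cyp4a10 or Fgf21, both PPARα targets, and at Cyp2b10, the CAR target, one of 3.14 was found in B6 males alone. Nqo1, induced through AhR, was the single target gene called. It had 8.49 in CAST males and 6.71 in CAST females against 3.81 in B6 males and 2.83 in B6 females. The strain ratios were past 1.5 in both sexes. That is 1 of 21 target genes with a DHS in both strains in males and 1 of 19 in females. Of protein-coding genes, 4.03% in males and 4.72% in females were past 1.5 in either direction. The tissue label was checked in the same way. All 7 hepatocyte markers had a promoter DHS in every list, with centred ratios past 1.5 at Apoa1 for the sexes in B6 (0.586, higher in females) and at Tat for the strains in females (1.62, higher in B6), and no list had one at any of the 5 Kupffer cell and leukocyte markers or the 4 markers of other organs. Of 3 endothelial markers Stab2 had one in all 4 lists, Kdr in the B6 lists and Pecam1 in B6 males, and of 4 stellate and bile duct markers only Col1a1 had one, in the male lists.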

How the data were processed

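DNase-seq was run on liver nuclei in 16 libraries, and groups were taken from the library titles. The authors mapped reads with Bowtie2 and kept unique matches, B6 to mm9 and CAST to mm9 carrying CAST variants (converted back to mm9), pooled the libraries of each group, called peaks with MACS2 and removed blacklisted and duplicate-only peaks. Names inside each deposited list carry the code of the group's first library alone, although the lists are described as merged. The deposited fold enrichment is the summit pileup over the local background of that list, a ratio, and the deposited −log10 p and −log10 q score each peak. A pileup is the number of overlapping fragments at a position; pileups and local backgrounds were recovered from the fold and p-value with the pseudocount of 1 that MACS2 adds, and 99.86% to 99.96% of pileups in a list were whole numbers within 0.02. The most frequent background of a list was taken as genome-wide.

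From these files, peaks sharing 1 bp were merged, and the strongest peak of a list stood for it in each region. Ratios between lists were divided by their median over all shared regions of the genome and called past 1.5. Intervals are exact conditional binomial (Clopper-Pearson) at 95% and cover counting error only. No test was made, since there was 1 list per group. Start sites, gene bodies and the reference sequence came from GENCODE vM1 and NCBIM37 (mm9), starts within 500 bp were grouped, and coordinates count from 1. Members and gene lists were chosen with earlier results of these data known. All 10 members are described; at each, the strongest region at a start, the strongest distal region, every region found in 1 sex in both strains or in 1 strain in both sexes, every region called in the same direction in both strains or both sexes, and any single-list region above its list's median were to be named. Other regions were named after their values were seen. The word counts of 30 bases were added after the values were seen. Merging, ratios and pileup recovery were tested on simulated data. Python 3.11.15, pandas 2.3.3, scipy 1.17.1 and bedtools 2.31.1 were used. Values of some listed genes are not reported here.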

Additional observations from a re-analysis of the deposited data

Results flagged for a closer look

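A single region had opposite sex patterns in the 2 strains. In an intron of Rxra, chr2:27607911-27608252, a DHS was found in B6 females and CAST males and in neither of the other lists, with a fold enrichment of 2.33 in B6 females and 2.26 in CAST males. With 1 list per group the difference was not tested. Both values lie near the lowest fold enrichment that gave a peak at the genome-wide background, 1.94 in B6 females and 1.90 in CAST males. Of all regions, 273 (0.530%) had this pattern and 146 (0.284%) the reverse, with peaks in B6 males and CAST females alone.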

How the results depend on the processing

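Of 52 recalculated totals and shares, 41 stayed within the counting interval of the share in the report or within 1.5 times the count. Of the 11 called ratios of single regions under 4 other settings, 12 values were no longer past the threshold and none changed direction. With a 50% reciprocal overlap the share of regions found in both sexes of CAST was 48.0% and in both strains in males 62.0%. At the stricter threshold (−log10 q of at least 15.7) the windows held 58 regions, 22 of them in all 4 lists, and 52.9% were shared by the sexes in B6. With lists of equal size (24888 peaks) by −log10 q the share common to the sexes was 76.1% in B6 and 75.4% in CAST, and by fold enrichment it was 77.4% in CAST. Called ratios numbered 11 in all, 3 at a fold of 2, 28 without centring and 24 from summit pileups over the genome-wide background, a rule by which more of all regions were called as well (3.41% to 11.6% per direction, against 2.56% to 6.68%). The Ppard CAST-high region in both sexes and the 3′ Nr5a2 male-high region in B6 passed under these 3 settings and with the mean in place of the highest peak of a region. The CAST female list was the shallowest, and a region without a peak there may lie under the lowest detectable fold, which also depends on the local background. No replicate could be left out, since each group was a single list. No paired analysis was possible because each group was deposited as 1 pooled list.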
